A study of Mus musculus with 9 samples.

Results

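Smooth muscle cells of brain veins and arteries were compared gene by gene in single cells. The deposited labels held 29 vSMC cells and 41 aSMC cells, and these 70 of 1235 cells are described here, chosen by the label alone. The labels give only the abbreviations, which are read here as venous and arterial smooth muscle cells. All cells came from the brain of adult mice, from which fragments of vessels were isolated and digested to single cells, and RNA was read over whole transcripts with SMART-seq2. Strain, sex, number of animals and treatment are not given in the labels, so both groups share whatever these were. Each label was deposited as 1 sample and cells of 1 sample are not replicates, so no test was made and no p-value is given. The sources used here do not say how cells were labelled. Since a gene used for labelling would differ by construction, every difference below is a description of these cells.

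Smooth muscle cells wrap arteries, arterioles, venules and veins, and contract through actin and myosin when calcium rises. Those of arteries form closed rings and set blood flow and pressure, while those of veins are flatter, stellate and sparser. Pericytes sit on the capillaries between them, share part of this gene programme and, in the brain, help to keep up the blood-brain barrier.

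Values are reads summed over the cells of a label, scaled to 1000000 reads (CPM), with exact Poisson 95% intervals in parentheses. These intervals and the binomial ones below cover the error of counting alone, because amplified reads carried no molecular identifier. Reads per cell ran from 100021 to 737050 in vSMC (median 176971) and from 123200 to 734460 in aSMC (median 269635). The prefix of each cell's name gave its plate. Of the vSMC cells 9 were on plate s169s, 5 on s480s, 7 on s482s and 8 on s483s, and of the aSMC cells 7, 13, 11 and 10. Values by plate are given in that order. Because whole transcripts were read and no length was used, levels are compared between cells and not between genes.

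Both labels held smooth muscle RNA. Acta2, the smooth muscle actin, had a read in every vSMC and aSMC cell. Its level was 3728 CPM (3681 to 3776) in vSMC, 6440.1 CPM (6394 to 6486) in aSMC and 257 CPM in the cells labelled PC, whose summed pericyte genes were the highest of the 9 labels. Myh11, the smooth muscle myosin heavy chain, had a read in 24 of 29 vSMC and 41 of 41 aSMC cells, at 726 CPM (705 to 747) and 2419.8 CPM (2392 to 2448), against 44.1 CPM in PC. The position of a cell along a vessel was not measured, and the words venous and arterial rest on the label.

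A gene was counted as different when the labels were at least 4-fold apart on log2(CPM + 5), the higher label reached 50 CPM and a read was found in at least 50% of its cells. Of 11623 genes above 5 CPM in either label, 126 (1.08%) met this rule higher in vSMC and 101 (0.869%) higher in aSMC, 227 (1.95%) in all. The direction was the same on all 4 plates for 89 of the 126 and for 94 of the 101. After every cell was thinned to 100000 reads the counts were 60 and 82, and with equal weight for every cell 88 and 123, so which label had more such genes depended on the weighting. No gene separated all cells of one label from all cells of the other.

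A few cells carried much RNA of other cell types, and many differences move with them. The median capilEC cell held 46467 CPM of 20 endothelial markers, the median vSMC cell 3840 and the median aSMC cell 2711. Over 30% of the capilEC level (13940 CPM) lay 3 vSMC cells, at 24846, 20472 and 20269 CPM, and 2 aSMC cells, at 33966 and 14504 CPM. Those 3 vSMC cells held 25.3% of all vSMC reads and the 2 aSMC cells 6.80% of the aSMC reads. One further vSMC cell held 12358 CPM of the microglia markers, over 10% of the median MG cell. Without these 6 cells 89 genes were higher in vSMC and 177 in aSMC, and 60 of the 126 and 88 of the 101 were still among them.

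Of the 126 genes higher in vSMC, 72 were higher still in an endothelial label and 28 drew over 50% of their vSMC reads from 1 cell. For the 101 genes higher in aSMC these counts were 10 and 1. Without the 6 cells an endothelial label was higher for 33 of 89 genes in vSMC and 67 of 177 in aSMC. The same share over all measured genes was not taken. Where a gene described below leaves the size rule without the 6 cells, this is stated beside it. The part of RNA from other cells in the remaining differences was not tested.

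**Figure D1:**
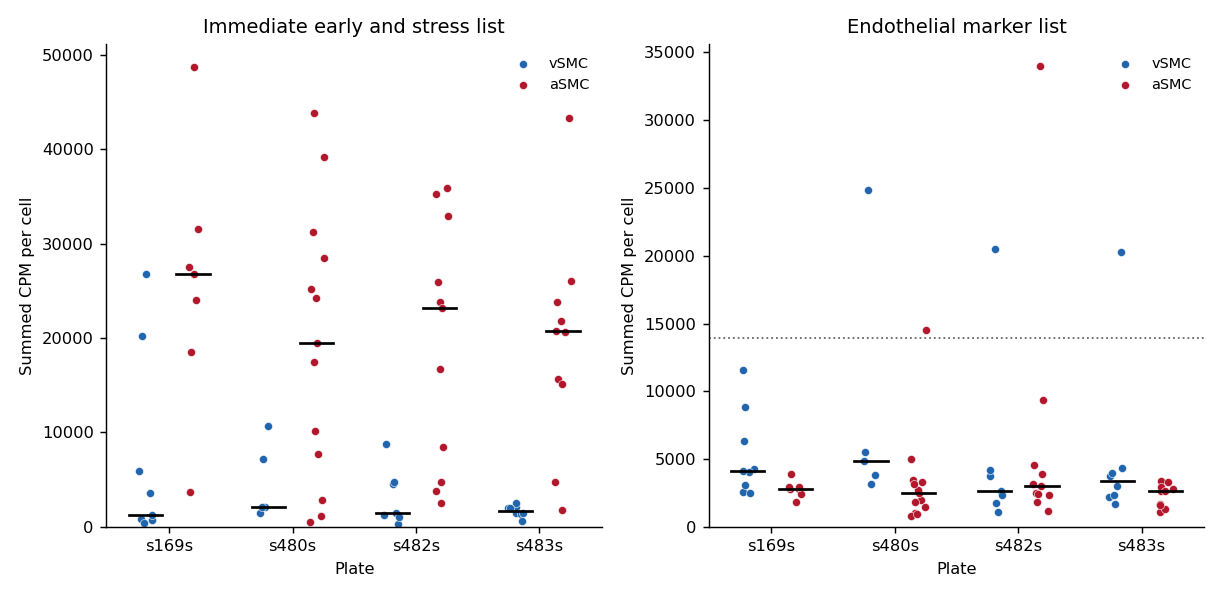
Summed CPM per cell (y axis) of the immediate early genes and of the endothelial markers, by plate (x axis), for vSMC and aSMC; each point is a cell and each bar the median. The dotted line marks 13940 CPM, above which 3 vSMC and 2 aSMC cells lie in the endothelial panel, and the immediate early medians of aSMC are above those of vSMC on all 4 plates.

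Of 41 contractile genes, all of them measured, 36 had a lower level in vSMC than in aSMC. Of the 41, 11 met the size rule higher in aSMC and 0 higher in vSMC, and the median log2 difference, vSMC minus aSMC, was -1.39 against 0.03 over all measured genes. The median was -1.13, -1.75, -1.08 and -1.22 on the 4 plates. It was -1.22 without the 6 cells, with 10 members higher in aSMC.

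The RefSeq promoters (build GRCm38.p6) of 6 contractile genes are shown because they hold a CArG box, a run of A and T between CC and GG that serum response factor binds in smooth muscle genes. Each is read 5′ to 3′ on the strand of the gene, before the RefSeq start, with the box in capitals, and Fhl2 has a box at each of 2 starts.
Fbxl22, chr9:66514786-66514843, minus strand, box 222 bases before the start: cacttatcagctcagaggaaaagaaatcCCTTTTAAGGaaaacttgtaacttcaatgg
Myl6, chr10:128493030-128493119, minus strand, box 50 bases before the start: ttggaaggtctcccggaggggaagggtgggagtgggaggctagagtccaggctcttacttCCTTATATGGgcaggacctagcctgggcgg
Cnn2, chr10:79988484-79988573, plus strand, box 56 bases before the start: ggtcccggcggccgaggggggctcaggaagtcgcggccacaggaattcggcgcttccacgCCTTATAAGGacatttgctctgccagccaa
Myl9, chr2:156775243-156775332, plus strand, box 161 bases before the start: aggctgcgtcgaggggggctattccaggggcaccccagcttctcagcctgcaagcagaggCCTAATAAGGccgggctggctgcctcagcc
Vcl, chr14:20929148-20929200, plus strand, box 227 bases before the start: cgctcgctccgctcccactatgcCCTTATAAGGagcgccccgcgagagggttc
Fhl2, first window, chr1:43196828-43196917, minus strand, box 96 bases before the start: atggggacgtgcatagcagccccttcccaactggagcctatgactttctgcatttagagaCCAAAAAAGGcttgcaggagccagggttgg
Fhl2, second window, chr1:43163963-43164052, minus strand, box 31 bases before the start: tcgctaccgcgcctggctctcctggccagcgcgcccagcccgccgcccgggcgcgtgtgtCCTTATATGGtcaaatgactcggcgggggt

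These promoters belong to genes with very different values. Fbxl22, an F-box protein of the muscle Z-disc, stood at 14.6 CPM (11.8 to 17.9) in vSMC and 399.9 CPM (389 to 412) in aSMC, a log2 difference of -4.37. The other 5 did not meet the size rule. Myl6, the non-muscle and smooth muscle myosin light chain, differed by -0.62, Cnn2, a broadly expressed calponin, by -0.53, and Myl9, the regulatory light chain, by -0.26. On the other side, Vcl, which encodes vinculin of the focal adhesions, differed by 0.32, with a direction that changed between plates. Fhl2, a LIM-only cofactor, stood at 64.3 CPM in vSMC, with reads in 6 cells and 84.4% of them from 1 cell, and had 0 reads in aSMC. Within windows of 250 bases before to 50 after the start, 16.7% of the 36 contractile genes with a window held a CArG box, against 1.81% of all 27025 genes and 1.66% of the 8293 with a window and over 5 CPM in either label. The share was 2.53% for the genes higher in aSMC and 3.37% for those higher in vSMC, which are 2 of 79 and 3 of 89 genes with a window, too few to compare. The motif TGGGAA, bound by the Notch mediator RBPJ and searched on both strands, was found in 29.1% of the former, 25.8% of the latter, 26.6% of those over 5 CPM and 28.3% of all genes.

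Cnn1, the smooth muscle calponin, which damps the actin-activated myosin ATPase, was nearly confined to aSMC within this pair. It had 4 reads in 2 vSMC cells and 9462 reads in 29 aSMC cells, or 0.636 CPM (0.173 to 1.63) and 814 CPM (797 to 830.2). On the 4 plates aSMC stood at 1294, 678, 463 and 1151 CPM and vSMC at 0.715, 0, 0 and 1.85 CPM. The pooled ratio was 1280.2-fold, with a counting interval from 499.9 to 4699.7. At 100000 reads per cell a read was found in 6.90% (0.846 to 22.8%) of vSMC cells and 65.9% (49.4 to 79.9%) of aSMC cells (exact binomial intervals), and in 5.11% of MG cells, which should lack it, at median depths of 176971, 269635 and 232674 reads before thinning (unthinned shares 6.90% and 70.7%). The vSMC share is thus at the background level.

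Csrp1, a LIM protein of the actin bundles, came closest to separating the cells among the contractile genes. Single aSMC cells ranged from 0 to 4635 CPM with a median of 2370.2, and vSMC cells from 0 to 924 CPM with a median of 5.09. Its pooled level was 66.6 CPM (60.4 to 73.3) in vSMC and 2334 CPM (2306 to 2361) in aSMC, and 60.4% of the vSMC reads came from 1 cell. By plate Csrp1 stood at 71.5, 227, 6.62 and 4.94 CPM in vSMC and at 1535, 2125, 2595 and 2768 CPM in aSMC, so no plate of one label reached any plate of the other. The area under the curve, the chance that a random vSMC cell lies above a random aSMC cell, was 0.03.

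A further 8 members of the contractile list, which was chosen with earlier results of these data known, met the rule. Susd5, a little studied membrane protein, had 2 reads in vSMC and 4566 in aSMC (0.318 and 393 CPM; ratio 1236, counting interval 342 to 10206). Mical2, an actin oxidase, had 2 reads in vSMC against 2433 in aSMC, at 209 CPM. Nexn, which encodes the Z-disc protein nexilin, stood at 3.02 CPM (1.82 to 4.71) and 224 CPM (216 to 233). All 3 were near the limit of detection in vSMC on every plate except for Nexn on s483s, where vSMC stood at 11.1 CPM.

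Synpo2, an actin-bundling protein, stood at 7.47 CPM (5.49 to 9.93) and 322 CPM (312 to 333), with 44.0% of the aSMC reads from 1 cell. Smtn, which encodes smoothelin of contractile smooth muscle, stood at 26.4, 302, 3.57 and 114 CPM by plate in vSMC and 316, 1500.0, 784 and 1239 CPM in aSMC. Pdlim7, a PDZ and LIM scaffold, stood at 108 against 713 CPM. The highest plate of vSMC stayed below the lowest plate of aSMC for Smtn and Pdlim7.

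Ppp1r12b, a targeting subunit of myosin phosphatase, stood at 197 against 1189 CPM. Lmod1, which encodes leiomodin, a nucleator of actin filaments, stood at 136 against 679.9 CPM, but without the 6 cells its difference was -1.87 and missed the rule. On plates Lmod1 ran from 22.1 to 277 CPM in vSMC and from 332 to 894 CPM in aSMC, which did not overlap.

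The abundant contractile genes were lower in vSMC by less than 4-fold. Acta2 stood at 4811, 2828, 2922 and 4499.8 CPM by plate in vSMC and 9121, 5760.4, 5638 and 6819 CPM in aSMC, and single cells ran from 57.7 to 10742 CPM with a median of 3961 in vSMC and from 3078 to 12603 CPM with a median of 7022 in aSMC. The pooled log2 difference of Acta2 was -0.79, and the plates did not overlap although the cells did. Tagln, the actin-binding transgelin, stood at 2408, 204, 877 and 690.1 CPM against 4235, 2415, 2289.7 and 2873 CPM, and its highest vSMC plate, s169s, lay above the lowest aSMC plate.

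Myh11 stood at 830.3, 468, 617 and 977 CPM by plate in vSMC and 2338, 3103, 1674 and 2409 CPM in aSMC, a pooled difference of -1.73 with no overlap of plates. The tropomyosins Tpm1 and Tpm2, which lie along the thin filament, differed by -0.81 and -0.98, and Mylk, the myosin light chain kinase that starts contraction, by -1.37. Des, the intermediate filament protein desmin, differed by -1.63. All of these were lower in vSMC on all 4 plates.

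A small number of contractile genes ran level or the other way. Myl9 was nearly level at 3813 CPM (3765 to 3862) in vSMC and 4565 CPM (4527 to 4604) in aSMC, and its cells overlapped broadly. Cald1, which encodes caldesmon, stood at 1909 against 1585 CPM. Tpm4, a tropomyosin of the cytoskeleton, was higher in vSMC at 1197, 363, 521 and 563 CPM by plate against 118, 286, 289 and 117 CPM, a difference of 1.52 that missed the rule. Of the 41 contractile genes 5 had a higher level in vSMC, namely Cald1, Tpm4, Vcl, Fhl2 and Itga1, an integrin alpha chain that differed by 1.07. Fhl2 had the largest of these differences at 3.79, a value that depends on the pseudocount because aSMC had no read.

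Summed over the list, a single vSMC cell held 13661 to 51642 CPM of contractile RNA with a median of 34588, and an aSMC cell 23954 to 98038 CPM with a median of 55378. PC cells held 2719 to 32013 CPM with a median of 15304. Of 41 aSMC cells, 29 lay above the highest vSMC cell, and 10 of 29 vSMC cells lay below the lowest aSMC cell. The vSMC median by plate was 36714, 23714, 24444 and 37418 CPM and the aSMC median 55890, 58754, 47729 and 58141 CPM. Every aSMC plate was above every vSMC plate, while the cells overlapped.

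**Figure D2:**
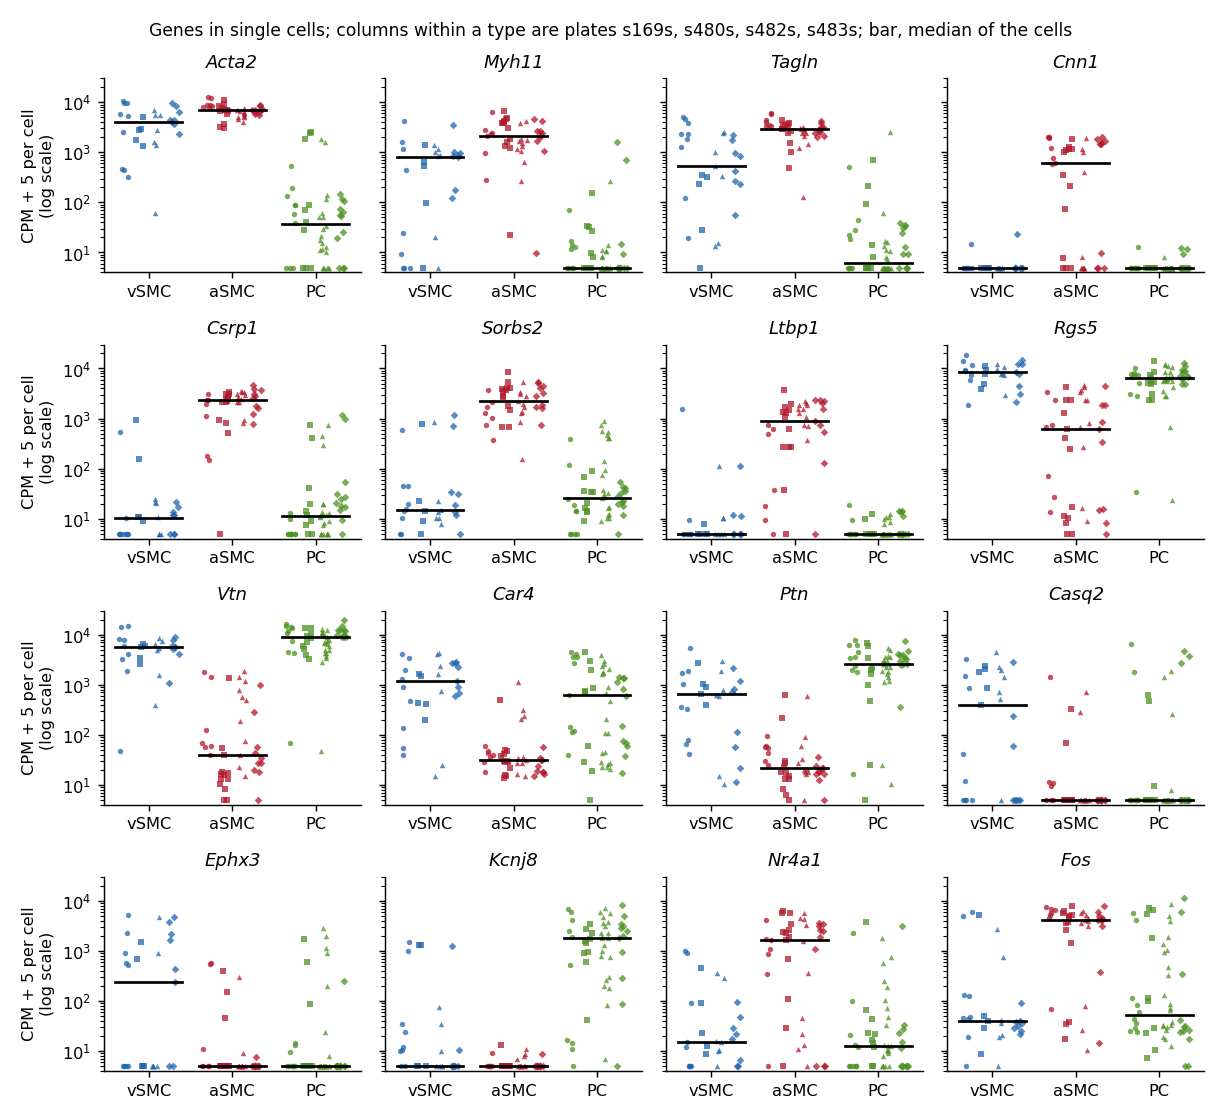
CPM + 5 in every vSMC, aSMC and PC cell (y axes, log scale) for 16 named genes, with the cells of each label in 4 columns by plate and a bar at the median of each label. Csrp1 and Sorbs2 are near the floor in most vSMC cells and high in aSMC, Rgs5 and Vtn show the reverse, and Acta2 overlaps between the labels.

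Regulators of the contractile programme showed no such shift in their pooled median, although single members differed. Of 25 listed, 21 were measured and 0 met the rule, near the share of 1.95% over all measured genes. The median difference was 0.03, equal to that of all measured genes, and ran from -0.90 to 0.11 across plates. Myocd, which encodes myocardin, the coactivator of serum response factor in smooth muscle, stood at 23.6, 248, 215 and 394 CPM by plate in vSMC and 197, 586, 934 and 1238 CPM in aSMC, a pooled difference of -1.79. A read of Myocd was found in 9 of 29 vSMC and 28 of 41 aSMC cells, and PC stood at 1.21 CPM. It was therefore lower in vSMC on each plate without meeting the rule. Nr2f2, a nuclear receptor known for venous identity in endothelium, was level at 283 CPM (269.7 to 296) in vSMC and 299 CPM (289 to 309) in aSMC.

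Other genes higher in aSMC lay outside the contractile list. Sorbs2, a scaffold between actin and focal adhesions, had a read in all aSMC cells at 1464, 3512, 2269 and 3355 CPM by plate and stood at 89.3 to 382 CPM on the vSMC plates. Its levels without the 6 cells were 76.4 and 2932 CPM. Single cells ranged from 0 to 1181 CPM with a median of 10.2 in vSMC and from 152 to 8327 CPM with a median of 2236 in aSMC, and the area under the curve was 0.02, lower still than that of Csrp1.

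Ltbp1, which binds latent TGF-beta in the matrix, stood at 154, 0.762, 41.3 and 40.2 CPM by plate in vSMC and 267, 1110.1, 1324 and 1359.8 CPM in aSMC. Tgfb3, a TGF-beta ligand, stood at 19.1 CPM (15.8 to 22.8) and 484 CPM (472 to 497), with 99.2% of its vSMC reads in 1 cell. Ctgf, a matricellular protein, stood at 37.0 against 245 CPM. Of 34 measured genes of the TGF-beta and BMP list these 3 were higher in aSMC and 1 in vSMC, Acvrl1, an endothelial BMP receptor. Acvrl1 stood at 129 against 14.9 CPM with all cells and at 12.2 against 12.3 CPM without the 6 cells, where its difference was gone.

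Errfi1, a feedback inhibitor of the EGF receptor, stood at 18.9 CPM (15.7 to 22.6) in vSMC and 1176 CPM (1156 to 1196) in aSMC, and 90.8% of the vSMC reads came from 1 cell. Trp53i11, a p53-induced membrane protein, stood at 23.7 against 829 CPM. Tspan9, a tetraspanin, Ehd1, which recycles endosomes, Prkcd, a protein kinase C, Usp2, a deubiquitinase, and Lrch1 complete the first 15 by size. Their aSMC levels were 217, 188, 166, 119 and 155 CPM and their vSMC levels 0.953, 0.953, 2.86, 0.953 and 2.86 CPM. On plate s169s, Ehd1, Prkcd and Lrch1 were low in aSMC as well, at 1.88, 0.626 and 3.13 CPM. None of Tspan9, Ehd1, Prkcd, Usp2 and Lrch1 met the rule after every cell was thinned to 100000 reads. Prkcd, Usp2 and Lrch1 also missed it without plate s482s.

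Growth factor genes differed in both directions. Of 30 measured, 3 were higher in aSMC and 2 in vSMC, with a median difference of 0.06. Igfbp4, a binding protein that restrains insulin-like growth factors, stood at 44.3 against 667 CPM, and Fgf1 at 39.3, 80.0, 121 and 83.4 CPM by plate in vSMC against 341, 292, 466 and 427 CPM in aSMC. Apcdd1, an inhibitor of Wnt signalling, stood at 12.6 against 105 CPM, but without the 6 cells its difference was -1.91, under the rule, and it was not lower on all plates. The 2 genes higher in vSMC were Ptn, which encodes the heparin-binding growth factor pleiotrophin, and Nrp1, a coreceptor for VEGF and semaphorins, at 237 against 43.9 CPM. The counts were 2 and 2 and the list median -1.31 without the 6 cells.

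The pericyte genes were the group most clearly higher in vSMC. Of 23 listed, 19 were measured, 8 met the size rule higher in vSMC and 0 in aSMC, and the median difference was 2.61 against 0.03 over all measured genes. By plate it was 3.60, 1.81, 2.43 and 2.16. Leaving out the 6 cells gave 9 members and a median of 3.10.

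Vtn, which encodes vitronectin, an adhesive protein that brain pericytes secrete, had a read in all vSMC cells and in most aSMC cells. It stood at 5764, 4726, 3629 and 4251 CPM by plate in vSMC and at 450.3, 198, 635 and 115 CPM in aSMC. Single vSMC cells ran from 42.8 to 14897 CPM with a median of 5728, and aSMC cells from 0 to 1879 CPM with a median of 35.3. The pooled levels were 4492 CPM (4440.3 to 4545) and 339 CPM (328 to 349), 13.3-fold apart, and PC stood higher at 7339 CPM. The area under the curve was 0.97, so few pairs of cells ran the other way.

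Rgs5, a regulator that shortens G protein signalling and is used as a pericyte marker, stood at 9413, 7235, 6733 and 6651 CPM by plate in vSMC and 1099, 761, 2152 and 853 CPM in aSMC. The pooled level in vSMC, 7412 CPM (7345 to 7479.9), was above that in PC, 6061 CPM, and 6.02-fold above that in aSMC. Higd1b, a mitochondrial inner membrane protein of mural cells, stood at 1001, 1167 and 225 CPM in vSMC, PC and aSMC. For both genes no plate of aSMC reached the lowest plate of vSMC.

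Enzymes, receptors and transporters of the pericyte list followed. P2ry14, a receptor for UDP-glucose, stood at 954 against 152 CPM, and Enpep, the aminopeptidase that cleaves angiotensin II, at 580.2 against 49.3 CPM. Slc6a20a, a proline transporter, stood at 316 against 14.2 CPM, with 95.8% of the aSMC reads from 1 cell. Ifitm1, an interferon-induced membrane protein, stood at 295 against 12.6 CPM. All 4 were higher in vSMC on each plate.

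Atp13a5, a P-type ATPase found in brain pericytes, had the highest log2 difference of the pericyte list, 5.97. It stood at 468, 242, 566 and 82.2 CPM by plate in vSMC and at 3.13, 0, 0.895 and 0 CPM in aSMC, where 8 reads were found in all. A read was found in 19 of 29 vSMC cells. In the thinned cells the share was 62.1% (42.3 to 79.3%) in vSMC, 7.32% (1.54 to 19.9%) in aSMC and 8.03% in MG, so that the aSMC share was at background.

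Kcnj8 and Abcc9, the pore and the regulatory subunit of an ATP-sensitive potassium channel of pericytes, differed by 5.43 and 4.58 but had reads in fewer vSMC cells than Atp13a5. With all cells, Kcnj8 had a read in 14 of 29 vSMC cells and Abcc9 in 13, both under the 50% of the rule. For Kcnj8, 5 vSMC cells reached 100 CPM, against 45 of 54 PC cells. Its level by plate was 327, 596, 30.1 and 129 CPM in vSMC and at most 1.49 CPM in aSMC. Abcc9 reached 100 CPM in 4 vSMC cells and in 38 PC cells. In the 22 vSMC cells whose Kcnj8 and Abcc9 levels summed to at most 281 CPM, 10% of the median PC cell, the pericyte median against aSMC was 2.36 and 8 members met the rule.

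Summed over the list, a vSMC cell held 5019 to 54079 CPM of pericyte RNA with a median of 22327, an aSMC cell 713 to 10191 CPM with a median of 4096, and the median PC cell 30264 CPM. Of 29 vSMC cells, 25 lay above the highest aSMC cell, and 23 of 41 aSMC cells lay below the lowest vSMC cell. The vSMC medians by plate were 21270, 25254, 21474 and 23779 CPM and the aSMC medians 5102, 3584, 6312 and 3440 CPM. Across cells the contractile and pericyte sums had a Pearson r of -0.13 in vSMC (29 cells), -0.42 in aSMC (41 cells) and 0.21 in PC (54 cells). Those points share plates and the scaling to a common total, so the r values are a description.

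**Figure D3:**
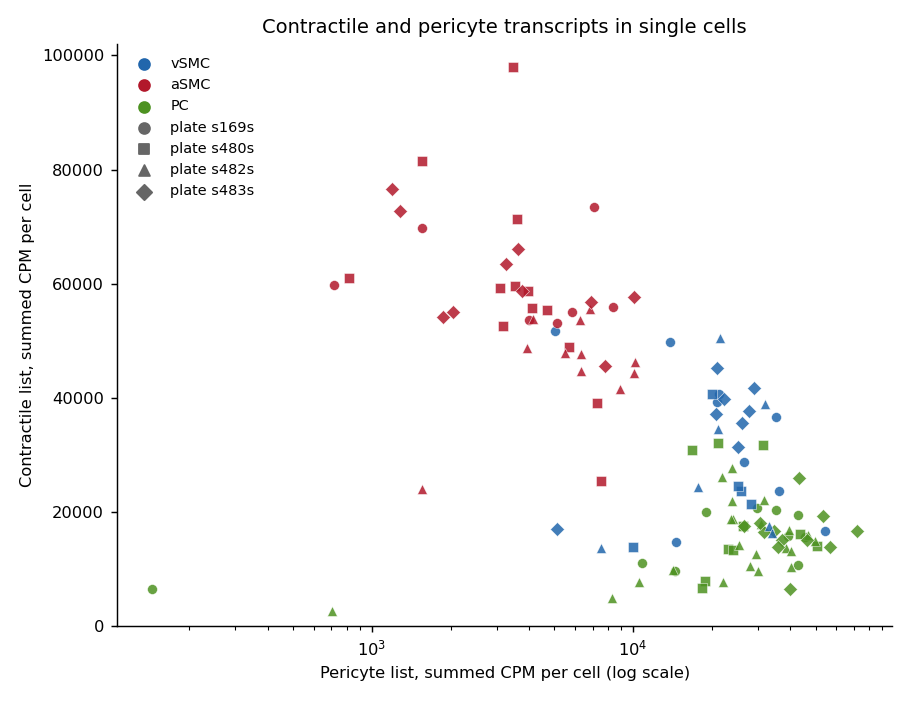
Summed CPM per cell of the pericyte list (x axis, log scale) and of the contractile list (y axis) in each vSMC, aSMC and PC cell, with colour for the label and symbol for the plate. The vSMC cells lie to the right of nearly all aSMC cells and mostly above the PC cells, with a median contractile sum of 34588 CPM against 15304 in PC.

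Over all genes fewer differences met the size rule between PC and vSMC than between PC and aSMC. Against PC, 33 genes were higher in vSMC and 49 in PC (0.272% and 0.404% of 12117), while 150 were higher in aSMC and 154 in PC (1.22% and 1.26% of 12252). The median absolute log2 difference against PC was nearly the same for both labels, at 0.81 for vSMC and 0.83 for aSMC. It was 1.05 between vSMC and aSMC. Among the 126 genes higher in vSMC, PC was above both labels for 45, between them for 78 and below both for 3, and it was nearer to vSMC for 104. Among the 101 genes higher in aSMC, PC was above both for 4, between for 68 and below both for 29, and nearer to aSMC for 29. Highest of all 9 labels were 67 of the genes higher in aSMC and 25 of those higher in vSMC. These comparisons share the vSMC and aSMC cells. PC also held mixed cells by the limits used above. Of the PC cells 8 were over the endothelial limit, with 20.6% of the PC reads, and 10 were over either limit. Summed endothelial markers stood at 10375 CPM in PC, 8122 in vSMC and 3889 in aSMC. The PC comparisons were not repeated without mixed cells, and the part of endothelial RNA in them was not tested.

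Several further genes higher in vSMC were also high in PC. Car4, a membrane-bound carbonic anhydrase, had a read in all cells of both labels, at 1273, 913, 1292 and 1406 CPM by plate in vSMC and 33.8, 88.4, 174 and 20.1 CPM in aSMC, and stood at 1069 CPM in PC. Single vSMC cells ran from 10.2 to 4335 CPM with a median of 1177 and aSMC cells from 8.47 to 1116 CPM with a median of 26.4. Ptn stood at 1036, 1262, 764 and 714 CPM by plate in vSMC, at 45.7, 88.6, 65.6 and 13.3 CPM in aSMC and at 2476 CPM in PC. Art3, an ADP-ribosyltransferase family member, stood at 469.7 CPM in vSMC, 16.4 in aSMC and 929 in PC. All 3 were higher in vSMC on each plate.

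Tnfrsf21, a death receptor, stood at 219, 899.8, 444 and 342 CPM by plate in vSMC and at 9.46 CPM in all aSMC cells. Plxdc2, a membrane protein related to plexins, stood at 320.5 against 9.55 CPM, but plate s483s held 3.71 CPM in vSMC. Ggt5, a glutamyl transferase, stood at 479 against 18.5 CPM, and Lrrc8b, a subunit of volume-regulated anion channels, at 141 against 3.10 CPM. Leaving out the 6 cells took Lrrc8b out of the rule with its difference at 4.54, since under 50% of the remaining vSMC cells held a read.

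Some of the largest differences in vSMC left the rule without the mixed cells. Trf, which encodes transferrin, stood at 158 against 2.75 CPM with 95.8% of its vSMC reads from 1 cell, and at 8.44 against 2.68 CPM without the 6 cells. Its exons also overlap those of Gm20425 on the same strand. Ocln, the tight junction protein occludin of endothelium, stood at 152 against 4.64 CPM, and at 7.77 against 4.34 CPM without them. Iars2, a mitochondrial tRNA synthetase, stood at 156 CPM with 14 reads in aSMC, and without the 6 cells at 194 against 0.461 CPM, where too few vSMC cells held a read. Of its exon bases 22.9% overlap Rab3gap2 on the other strand, and SMART-seq2 does not mark the strand.

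At least 4-fold above all other 8 labels were 23 of the 101 genes higher in aSMC. Of the 126 genes higher in vSMC, only Ephx3, an epoxide hydrolase of fatty acid epoxides, was so. It stood at 845, 383, 627 and 1220.3 CPM by plate in vSMC, 182, 53.2, 30.1 and 0.359 CPM in aSMC, and 185 CPM in PC. Single PC cells reached 2891 CPM, so vSMC and PC cells overlapped. A read of Ephx3 was found in 15 of 29 vSMC and 9 of 41 aSMC cells. After thinning the shares were 51.7% (32.5 to 70.6%) and 14.6% (5.57 to 29.2%), with 6.57% in MG. Its levels were 991 and 47.8 CPM without the 6 cells. Without plate s483s, which had the highest vSMC level, Ephx3 no longer met the rule.

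Calcium handling split by gene. Of 21 measured genes 2 were higher in vSMC and 0 in aSMC, with a median of 0.27. Casq2, which encodes the calsequestrin that stores calcium in the sarcoplasmic reticulum, stood at 549, 1572, 1267 and 348 CPM by plate in vSMC and 213, 28.3, 99.9 and 0 CPM in aSMC. The pooled levels of Casq2 were 935 CPM (911 to 959) and 67.5 CPM (62.9 to 72.4), with 359 CPM in PC. A read of it was found in 19 of 29 vSMC and 8 of 41 aSMC cells. Each vSMC plate was above each aSMC plate.

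Atp2a3, a pump that refills that store, stood at 158, 1534, 312 and 421 CPM by plate in vSMC and 0, 129, 152 and 115 CPM in aSMC, and missed the rule without plate s480s. Pln, which encodes phospholamban, the inhibitor of such pumps, ran the other way, at 1015, 51.8, 115 and 712 CPM in vSMC and 2530.4, 1190.2, 1708 and 1955 CPM in aSMC, a difference of -1.90 just under the rule. PC held 7.66 CPM of Pln.

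Of 35 measured ion channel genes, 2 were higher in aSMC and 0 in vSMC with all cells, and the median was -0.19. Over all measured genes 0.869% were higher in aSMC and 1.08% in vSMC. Without the mixed cells 2 ion channel genes were higher in aSMC and 2 in vSMC, with a median of 0.045, so the one-sided count did not hold. Kcnab1, a beta subunit of voltage-gated potassium channels, stood at 0, 0, 57.6 and 23.5 CPM by plate in vSMC and 317, 312, 284 and 623 CPM in aSMC. Kcne4, another accessory subunit of potassium channels, stood at 77.2, 11.4, 62.1 and 11.1 CPM in vSMC and 688, 317, 312 and 519 CPM in aSMC. For both, no vSMC plate reached an aSMC plate. Ano1, the calcium-activated chloride channel that depolarises smooth muscle, stood higher in vSMC at 821 against 248 CPM, a difference of 1.71 that ran from 0.23 to 7.37 across plates.

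Few receptors for vasoactive signals met the rule. Of 28 measured, P2ry14 was higher in vSMC and Ramp1, the subunit that makes the receptor for the dilator CGRP, higher in aSMC. The shares over all measured genes were 1.08% and 0.869%. Ramp1 stood at 184, 139, 0 and 31.5 CPM by plate in vSMC and 707, 341, 301 and 280.4 CPM in aSMC, and without the 6 cells its difference of -1.90 was under the rule. Npy1r, the receptor through which neuropeptide Y constricts vessels, had a read in 12 of 29 vSMC and 36 of 41 aSMC cells and differed by -1.41. Ednra, the endothelin receptor of smooth muscle, stood at 847 against 723 CPM.

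The nitric oxide receptor enzyme was present in both. Gucy1a3, its alpha subunit, stood at 931 CPM (907 to 955) and 1063 CPM (1045 to 1082), and Gucy1b3, the beta subunit, at 891 CPM (868 to 915) and 388 CPM (376 to 399). Of 25 measured genes of the cGMP and cAMP list, 0 met the rule in either direction.

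Notch signalling, which maintains arterial smooth muscle, had 0 of 18 measured genes past the rule, near the share of 1.95% over all measured genes. Its list median was 0.70. Notch3, the receptor of mural cells, stood at 429, 2071, 1119 and 824 CPM by plate in vSMC and 39.5, 689, 537 and 429.7 CPM in aSMC, higher in vSMC on each plate. Heyl, a target of Notch3, stood at 0, 811, 389 and 159 CPM in vSMC and 295, 660.3, 1150.2 and 1006 CPM in aSMC, so the direction differed between plates. A read of Heyl was found in 12 of 29 vSMC and 35 of 41 aSMC cells. Pdgfrb, the receptor that recruits mural cells, stood at 780.3, 2789.9, 1053 and 739 CPM in vSMC and 238, 418, 624 and 642 CPM in aSMC.

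Of 31 measured collagen and basement membrane genes 2 were higher in vSMC, Vtn and Lamc3, and 0 in aSMC, against 1.08% and 0.869% of all measured genes. Lamc3, a laminin gamma chain, stood at 409, 499, 314 and 193 CPM by plate in vSMC and 0.626, 115, 29.2 and 0 CPM in aSMC. Sparcl1, a secreted matrix protein, was abundant in both and lower in vSMC, at 2595, 4188, 2795 and 2867 CPM by plate against 6835, 6833, 6634 and 7292 CPM. Single cells held 2867 CPM of Sparcl1 at the median in vSMC and 7115 in aSMC, and the area under the curve was 0.04, although the difference of -1.17 was under the rule.

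Of 30 measured genes for elastic fibres and matrix turnover 1 was higher in aSMC, Adamts1, a protease of proteoglycans, at 62.0 against 356 CPM. Without the 6 cells its levels were 4.44 and 331 CPM. Some genes had large differences but were read in fewer than 50% of aSMC cells. Eln, which encodes elastin, stood at 10.3 against 202 CPM with reads in 5 and 20 cells, and 93.8% of the vSMC reads came from 1 cell. Thbs1, a matrix protein that activates TGF-beta, had 1 read in vSMC and 4154 in 14 aSMC cells. Ptgis, prostacyclin synthase, had 25 reads in 2 vSMC cells and 3519 in 19 aSMC cells.

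The immediate early genes formed the other large group higher in aSMC. These genes are transcribed within minutes of a stimulus, such as a growth factor, stretch or the dissociation of a tissue. Of 34 listed, 31 were measured, 10 met the rule higher in aSMC and 0 in vSMC, and the median difference was -1.86. By plate it was -1.29, -2.30, -1.75 and -2.85. It was -2.11 without the 6 cells, with 11 members higher in aSMC, and without plate s483s 6 members met the rule.

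Fos, a subunit of the factor AP-1, stood at 1687, 1094, 532 and 32.7 CPM by plate in vSMC and 5371, 3674, 3439.6 and 3667 CPM in aSMC. Single cells ran from 0 to 5968 CPM with a median of 33.9 in vSMC and from 5.43 to 7922 CPM with a median of 4187 in aSMC. The vSMC cells spread from no read to above the aSMC median, and plate s483s was low. Nr4a1, a nuclear receptor, stood at 297, 110.5, 162 and 17.3 CPM in vSMC and 1446, 2983, 1768 and 1719 CPM in aSMC, the largest difference of the list at -3.83.

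Egr1, a zinc finger factor, stood at 536 CPM (518 to 554) in vSMC and 2479 CPM (2451 to 2508) in aSMC. The AP-1 members Junb and Jun differed by -2.33 and -3.04, Zfp36, which destabilises mRNA, by -2.68, and Btg2, a brake on proliferation, by -2.45. Dusp1, a phosphatase of MAP kinases, differed by -2.17. Cyr61, a matricellular protein, stood at 116 against 786 CPM and without the 6 cells at 5.33 against 792 CPM. All 7 genes were lower in vSMC on each plate.

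Atf3, a stress-induced factor, met the rule with all cells at 160.0 against 754 CPM. Its vSMC level rested on plate s169s, at 699 CPM against 3.71 CPM on the lowest plate, and 56.9% of the vSMC reads came from 1 cell. Without the 6 cells its difference was -1.76.

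Summed over the list, a vSMC cell held 320 to 26796 CPM of immediate early RNA with a median of 1954, and an aSMC cell 511 to 48718 CPM with a median of 21841. The median was 2718 CPM in PC, 3081 in capilEC and 33527 in MG. On the 4 plates the median was 1210, 2136, 1413 and 1720 CPM in vSMC and 26726, 19469, 23202 and 20718 CPM in aSMC. The median was lower in vSMC on every plate. Of 29 vSMC cells 1 lay above the aSMC median, and 11 of 41 aSMC cells lay above the highest vSMC cell. Mitochondrial reads, a measure of RNA quality, made up 2.39% of the median vSMC cell and 2.25% of the median aSMC cell, and thinned cells held 2835 and 2904 genes.

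**Figure D4:**
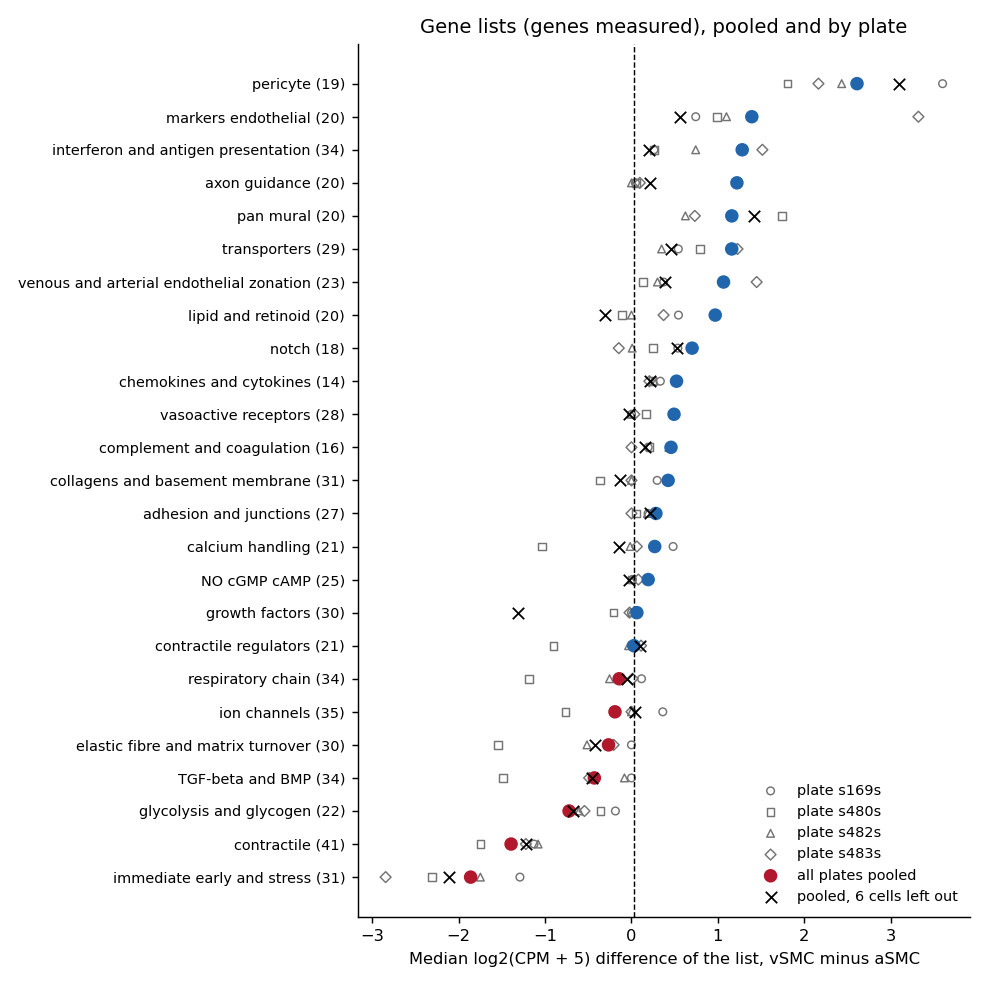
Median log2 difference, vSMC minus aSMC (x axis), of 25 gene lists (y axis): filled symbols for all cells, open symbols for each plate, crosses without the 6 cells with RNA of other types, and a dashed line at the median of all measured genes, 0.03. The contractile and immediate early lists lie below 0 and the pericyte list above 0 in all of these, at -1.39, -1.86 and 2.61 with all cells.

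Of 29 measured transporters 5 were higher in vSMC by the rule and 0 in aSMC, with a median of 1.16, and without the 6 cells the counts were 4 and 1 and the median 0.45. Among them, Slc12a2, the sodium, potassium and chloride cotransporter, stood at 276 against 27.7 CPM. Slc6a20a and the efflux pumps Abcb1a and Abcc4 of brain endothelium were others. Abcb1a stood at 124 CPM in vSMC with and 16.2 CPM without the 6 cells, and Abcc4 at 218 and 7.77 CPM.

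Immune and metabolic lists gave other counts without the mixed cells. For interferon and antigen presentation, 3 of 34 measured genes were higher in vSMC and 1 in aSMC, and without the 6 cells 1 and 4, with the median moving from 1.28 to 0.21. Bst2, an interferon-induced restriction factor, was the one higher in aSMC, at 12.6 against 128 CPM, and rested on plate s480s at 302 CPM. Of 20 measured lipid and retinoid genes 3 were higher in vSMC, among them Enpp2, which makes lysophosphatidic acid, at 130.4 against 8.94 CPM, and Apod, a lipid carrier, at 116 CPM in vSMC. Apod missed the rule without the 6 cells, at 35.1 against 18.5 CPM.

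Glycolysis had 1 of 22 measured genes past the rule, Ldhb, a lactate dehydrogenase subunit, at 42.6 against 240.3 CPM, with a list median of -0.72. Gapdh was level at 175 CPM (165 to 186) in vSMC and 173 CPM (166 to 181) in aSMC. Of 34 measured respiratory chain genes Higd1b alone met the rule. Ackr3, a scavenging receptor for the chemokine CXCL12, stood at 1055, 1953, 1605 and 1985 CPM by plate in vSMC and 114, 450.2, 497 and 614 CPM in aSMC, higher in vSMC on each plate by a difference of 1.84.

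Markers of other cell types were present at low levels to differing extents. Of 20 endothelial markers all 20 were higher in vSMC, 6 of them past the rule (Ocln, Cdh5, Abcb1a, Pecam1, Flt1 and Slco1a4), and without the 6 cells 0 met it and the list median was 0.57 in place of 1.39. Summed endothelial levels were 8122 CPM in vSMC and 3889 in aSMC. Microglia markers summed to 664 CPM in vSMC and 205 in aSMC, against 42819 in MG, and of 13 measured of 20 listed 12 were higher in vSMC. The complement genes C1qa, C1qb and C1qc met the rule higher in vSMC and none did without the 6 cells; C1qb stood at 189 CPM with them and 39.3 without.

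Fibroblast markers, 6 of 20 measured, summed to 355 CPM in vSMC and 379.7 in aSMC, against 20461 in FB, and Pdgfra, Dpt and Mfap5 had 0 reads in both. Astrocyte markers summed to 3785 and 2313 CPM. Of the 6 measured of 20 listed, 5 were higher in vSMC and 1 met the rule, with a median of 1.41, and 12 vSMC cells lay above the highest aSMC cell in the summed level. Without the 6 cells the astrocyte median was -0.44 and 1 marker met the rule. The defining astrocyte markers Aqp4, Gfap and Aldh1l1 had 0 reads in both.

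Oligodendrocyte markers, 3 of 15 measured, summed to 547 and 439 CPM with Mog, Olig1, Olig2 and Sox10 at 0 reads, and Mal, a myelin and epithelial membrane protein, met the rule higher in vSMC at 138 against 26.1 CPM but not without the 6 cells. Ependyma and choroid plexus markers, 3 of 10 measured, summed to 751 and 372 CPM, where Enpp2 met the rule with and without the 6 cells and Aqp1, Folr1 and Clic6 had 0 reads in both. Neuron markers, 3 of 15 measured, summed to 144 and 43.1 CPM, and blood markers, 1 of 12 measured, to 18.1 and 2.49 CPM. Their part in the differences was not tested beyond the values given without the mixed cells.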

How the data were processed

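The authors deposited a table of unnormalized counts, 1 column for each cell, and a table with the type label of each cell, per the file headers; values were whole numbers. The submitters' processing notes name featureCounts, Subread 1.4.6-p5 and SAMtools 1.16.1, and list both GRCm39 and GRCm38 with no role. Per the labels' protocols the libraries were SMART-seq2, which does not mark strand. The table held 46517 gene rows, of which 28386 had a read, and 1235 cells; 0 columns were left out and 0 cells shared identical counts. Of the vSMC and aSMC cells 5 share a well name with another on a different plate.

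Counts were summed by label, and by plate, and scaled to CPM. Differences are vSMC minus aSMC on log2(CPM + 5), which understates low genes, and the 3 reads taken as the detection limit are 0.48 CPM in vSMC and 0.26 in aSMC. With 1 sample per label no test was made. Shares of cells were taken after thinning to 100000 reads. No doublet caller was run; cells above 30% of the endothelial or 10% of the microglia level were left out as an alternative added after the data were seen. Fewer cells of a kind within a label and less RNA per cell cannot be told apart in the sums.

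The 33 gene lists (968 entries, 2 absent, 13 found under another symbol) and the cells compared were chosen with earlier results of these data known. A member counted as measured above 5 CPM in either label. Named were the first 15 genes of the size rule per direction with one direction on all plates. List members were named up to 8 past the rule and 6 others by level. Also named were some of the genes at least 4-fold above all other labels, those whose cells overlapped least, and those resting on 1 plate or cell. Predicted genes and clones were counted only, 4 higher in vSMC and 5 in aSMC. Myh11, Mylk, Cald1, Tpm4, Des, Vcl, Fhl2, Itga1, Mal, Abcc9, Eln, Thbs1 and Gapdh were named outside that rule after their values were seen. Symbols are as deposited, and 90.4% of rows matched a reference symbol. Promoters came from RefSeq (GRCm38.p6); Actg2, Tagln, Myh11 and Nexn were among those with no entry used here. Some results are not reported here.

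Alternatives were TMM factors from edgeR 4.0.16, size factors from DESeq2 1.42.0, library sizes that leave out mitochondrial and ribosomal RNA rows, equal weight per cell, thinning, other pseudocounts and thresholds, each plate left out, the top cell of each gene left out and mixed cells left out. Scripts ran in python 3.11.15 with numpy 2.4.6, pandas 2.3.3 and scipy 1.17.1, and in R 4.3.3, and were tested on simulated data.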

Additional observations from a re-analysis of the deposited data

How the results depend on the processing

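No paired analysis was possible because each label is 1 sample and replicate numbers pair nothing; both labels were instead compared within each of the 4 plates, as values without a test. The number of genes higher in vSMC, 126 with all cells, was 60 with thinned cells, 69 with a pseudocount of 20 CPM, 580 with no minimum share of cells, 34 at 8-fold, 199 without plate s480s and 198 without cells above 10% of another class. The number higher in aSMC, 101 with all cells, was 475 with no minimum share, 40 at 8-fold, 155 without plate s483s, 193 without the top cell of each gene, 586 without cells above 10% of another class and 177 without the 6 cells above 30% of the endothelial or 10% of the microglia level. The setting without cells above 10% of another class, called the 10% setting here, used 10% of the endothelial and microglia levels. It also left out cells above 2000 CPM of astrocyte markers, a fixed limit and not a share of any label. The 10% setting left 7 vSMC and 18 aSMC cells and moved the median of all measured genes to -0.34. TMM and DESeq2 factors moved that median to -0.08 and -0.03. Genes higher in vSMC made up 55.5% of all that met the rule, and 41.7% with equal weight per cell, 42.3% thinned, 42.8% without plate s483s, 36.5% without the top cell, 33.5% without the 6 cells and 25.3% under the 10% setting. The pericyte median was 3.53 with a pseudocount of 1 CPM, and 13 members met the rule with no minimum share and 5 at 8-fold. Of the immediate early genes 2 met it at 8-fold and 6 without plate s483s. The contractile median was -1.06 under the 10% setting. In every setting run the contractile and immediate early medians were below 0 and the pericyte median above 0. Acvrl1 changed sign, to -0.82 under the 10% setting and -0.0052 without the 6 cells. Of 85 single genes followed, 56 met the rule with thinned cells, 61 without the 6 cells, 51 under the 10% setting, 43 at 8-fold, and 66 to 85 in each of the other settings. The cause of these changes was not tested. Depth limits genes near 0.48 CPM in vSMC and 0.26 CPM in aSMC.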
